A study of Mus musculus with 2 samples.

Results

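The 5 loci described here are microRNA genes of striated muscle. Mir208a, Mir208b and Mir499 lie inside myosin heavy chain genes and are best known from the heart, while Mir206 and its neighbour Mir133b form the skeletal muscle pair. They were selected by name from the 1973 microRNA loci of the count tables, and all 5 were found by their Ensembl identifiers. Below, cardiac and skeletal are names for these groups of loci, and the cells that made the counts were not identified. The tissue was embryonic facial prominence of B6NCrl mouse embryos at day 11.5, from male and female embryos combined. There was 1 group with 2 biological replicates, a pool of 109 embryos (replicate 1) and a pool of 88 embryos (replicate 2). Both pools were healthy, share 1 donor entry, and have no treatment or engineered allele named. With 1 group there is no comparison between conditions, so levels were compared between loci and between the pools.

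MicroRNAs are short RNAs cut from a hairpin precursor, and they repress messenger RNAs that pair with their seed (bases 2 to 8). The myosin-hosted microRNAs are made from introns of the myosin transcripts and act on the balance of myosin isoforms and on the stress response of heart muscle. Mir206 and Mir133b are induced by myogenic transcription factors, and miR-206 promotes differentiation of myoblasts while the miR-133 family restrains serum response factor and affects myoblast growth. At this stage the heart is beating, and muscle precursors of the head are present in the pharyngeal arches, of which the first contributes to the facial prominences.

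The main mature products are shown to make the family structure visible, each 5′ to 3′ with the seed in capitals, as listed by RefSeq on GRCm38.p6. All 5 loci matched an entry there, with 2 mature arms each.
miR-208a-3p: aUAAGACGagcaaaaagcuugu
miR-208b-3p: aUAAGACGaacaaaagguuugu
miR-499-5p: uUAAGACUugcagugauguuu
miR-206-3p: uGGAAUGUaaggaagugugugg
miR-133b-3p: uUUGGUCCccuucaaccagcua
The cardiac products form 1 related group. miR-208a-3p and miR-208b-3p have the same seed and are identical at 19 of 22 bases, differing by G10A, A16G and C18U (from miR-208a-3p to miR-208b-3p, counted from the 5′ end). miR-499-5p shares 6 of the 7 seed bases with both, and differs there by G8U. The seeds of miR-206-3p and miR-133b-3p differ from these and from each other. Among the 1738 mature sequences of the table, no product of another locus had the seed of miR-208a-3p, miR-499-5p or miR-133b-3p apart from miR-208b-3p. For miR-133b-3p this holds for the listed products only, since its seed also lies in the hairpins of Mir133a-1 and Mir133a-2. miR-206 and miR-1 are known as 1 seed family. In the table, the seed of miR-206-3p was shared by miR-6349 and miR-6382, whose loci had 0 counts in both libraries.

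How far each locus can be told from its relatives matters for the counts, since the deposited tables list reads placed at several positions on a line of their own. That class held 22.7% of reads in replicate 1 and 20.5% in replicate 2. The hairpins of Mir208a and Mir208b are printed with their mature arms in capitals, because they are the closest relatives among the cardiac loci.
Mir208a: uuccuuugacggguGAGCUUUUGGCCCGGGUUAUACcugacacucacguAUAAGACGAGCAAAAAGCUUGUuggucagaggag
Mir208b: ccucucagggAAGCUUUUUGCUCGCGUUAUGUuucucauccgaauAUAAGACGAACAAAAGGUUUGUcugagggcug
Their longest common run, on either strand, was 14 bases. The longest run shared with any of 1893 other annotated hairpins was 13 bases for both Mir499 and Mir206. Mir133b differed from the other loci here: 21 of the 22 bases of miR-133b-3p occur as 1 run in the hairpins of Mir133a-1 and Mir133a-2. Reads of miR-133b-3p that end before its last base would fit several positions, so the counts of Mir133b may be incomplete. How many such reads there were was not measured here.

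The positions of the hairpins were the same in RefSeq and GENCODE M21 (GRCm38, the assembly named mm10 in the deposited files). Mir208a (ENSMUSG00000065432.1, chr14:54949060-54949142, minus strand) lies in intron 29 of Myh6, the gene of the alpha cardiac myosin heavy chain. Mir208b (ENSMUSG00000077928.1, chr14:54975700-54975776, minus strand) lies in intron 31 of Myh7, the gene of the beta or slow myosin heavy chain. These hairpins are 26557 bases apart, on the strand of their hosts. Mir499 (ENSMUSG00000076312.1, chr2:155622880-155622958, plus strand) lies in intron 19 of Myh7b, another myosin heavy chain gene. Mir206 (ENSMUSG00000065559.1, chr1:20679010-20679082, plus strand) and Mir133b (ENSMUSG00000065480.1, chr1:20682769-20682887, plus strand) are 3686 bases apart in the long non-coding RNA gene Gm28653. Mir133b is exonic in both annotated transcripts of Gm28653. Mir206 is intronic in the spliced transcript, and 60 of its 73 bases overlap the single exon of the other. The tables hold no counts for the host transcripts.

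**Figure D1:**
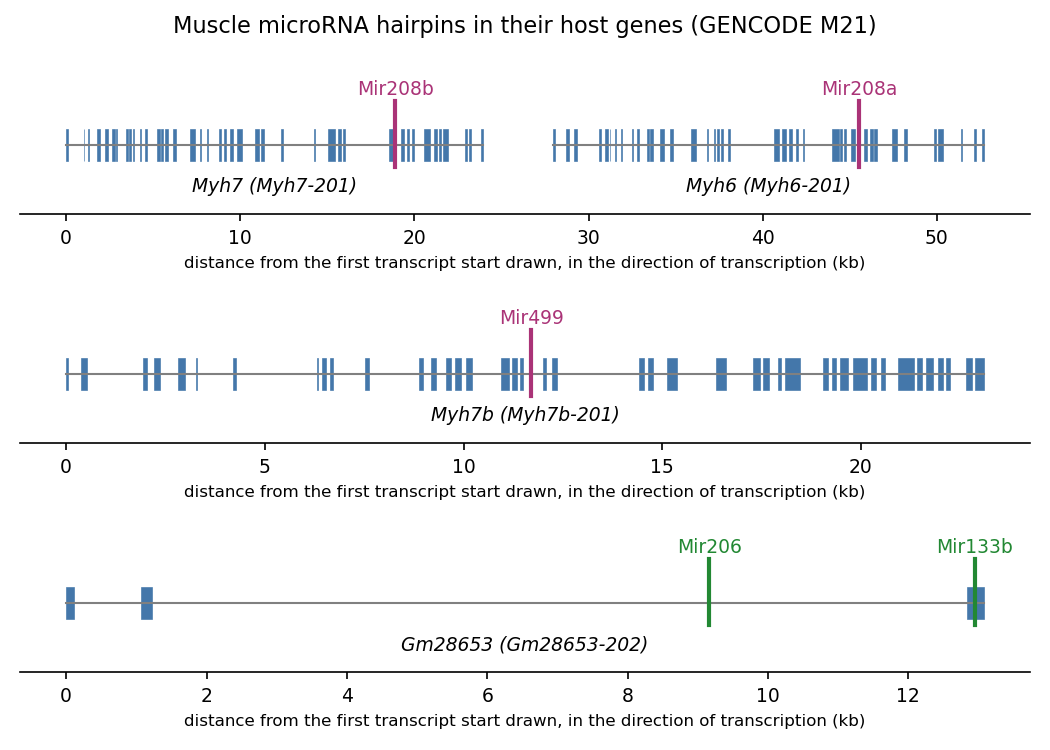
Hairpins (coloured lines, cardiac in purple and skeletal in green) drawn to scale on 1 transcript of each host gene, with exons as boxes; the horizontal axes give the distance in kb from the first transcript start drawn. Mir208b, Mir208a and Mir499 fall in introns, Mir206 in the long intron of Gm28653 and Mir133b in its last exon.

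Depth on the sense strand was 1941745 counts (replicate 1) and 2319881 counts (replicate 2). Levels are given in CPM, counts scaled to a total of 1000000 sense counts, so that 1 count equals 0.515 and 0.431 CPM. CPM values are per locus and were not divided by length, as the mature products are all 21 to 23 bases long. As a check of the labelled tissue, 5 of 5 loci of the facial mesenchyme list and 7 of 7 of the epithelial list had a mean count of 10 or more, as had 363 of all 1973 loci. All 3 cardiac, both skeletal and all 3 matched erythroid loci also met this minimum, so it does not set the labelled tissue apart. Intervals in brackets are exact 95% intervals that cover counting error only. Means are given ± SD with n = 2, and 2 libraries of 1 group allow no test of a difference.

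All 5 muscle loci were measured above a mean count of 10, and none had an opposite-strand count. Together they took 0.0628% of the sense counts in replicate 1 and 0.149% in replicate 2, so they were minor components of the tissue's microRNAs. The tissue was profiled in bulk, and fewer cells of a type and less RNA per cell cannot be told apart in these values.

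Among the cardiac loci, Mir208b was the most abundant. It had 412 counts (212 CPM, 192 to 234) in replicate 1 and 1759 counts (758 CPM, 723 to 795) in replicate 2, a mean of 485 ± 386 CPM. Mir208a, the partner in the adult-type myosin gene Myh6, had 78 counts (40.2 CPM, 31.8 to 50.1) in replicate 1 and 356 counts (153 CPM, 138 to 170) in replicate 2, a mean of 96.8 ± 80.1 CPM. Mir499 was the lowest of the cardiac loci, with 20 counts (10.3 CPM, 6.29 to 15.9) in replicate 1 and 68 counts (29.3 CPM, 22.8 to 37.2) in replicate 2, a mean of 19.8 ± 13.4 CPM. For each of these loci replicate 2 was the higher library, and the counting intervals of the libraries did not overlap. Such intervals narrow as counts rise, and the share of all loci without overlap was not counted. Those of the abundant Mir126a did not overlap either, at a ratio of only 1.04.

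Of the skeletal pair, Mir206 had 679 counts (350 CPM, 324 to 377) in replicate 1 and 1246 counts (537 CPM, 508 to 568) in replicate 2, a mean of 443 ± 133 CPM. It too was higher in replicate 2, with intervals that did not overlap, to which the limit just given for such intervals applies. Mir133b had 31 counts in replicate 1 and 37 in replicate 2, which is 16.0 CPM (10.8 to 22.7) and 15.9 CPM (11.2 to 22.0). The values of Mir133b nearly coincided, with the limit that part of its reads may be missing.

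**Figure D2:**
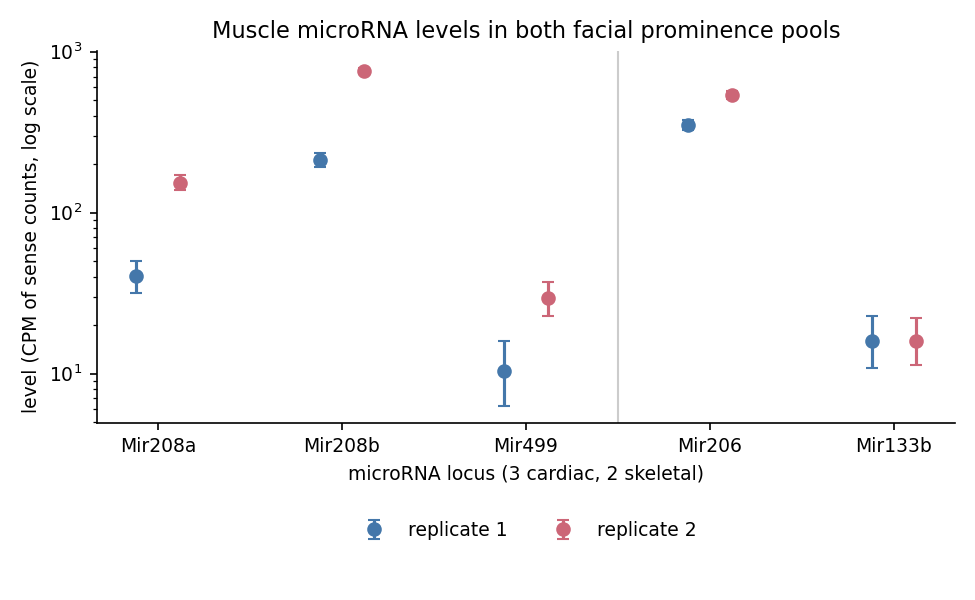
Level of each locus in CPM (log scale) in replicate 1 (blue) and replicate 2 (red), with bars for the exact 95% counting interval. The cardiac loci and Mir206 are higher in replicate 2, by 3.82-fold for Mir208a down to 1.54-fold for Mir206, while the points of Mir133b coincide at about 16.0 CPM.

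The order of the loci differed between the pools. In replicate 1 it was Mir206, Mir208b, Mir208a, Mir133b and Mir499, from highest to lowest. In replicate 2 Mir208b stood above Mir206, and Mir499 above Mir133b. Mir208b and Mir206 were therefore not separated beyond the spread of the replicates, and neither were Mir499 and Mir133b. The values of Mir208a (40.2 and 153 CPM) overlapped with those of no other locus of the 5. Ranked by mean CPM among all 1973 loci, Mir208b was at place 138, Mir206 at 143, Mir208a at 226, Mir499 at 297 and Mir133b at 303.

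The pools were then compared locus by locus, which compares libraries of 1 group and not conditions. Mir208a was 3.82-fold higher in replicate 2 (2.98 to 4.95), Mir208b 3.57-fold (3.21 to 3.99) and Mir499 2.85-fold (1.71 to 4.95). On the log2 scale these ratios were 1.93, 1.84 and 1.51. Mir206 was 1.54-fold higher (1.40 to 1.69), below the 2-fold limit used here, and Mir133b had a ratio of 0.999 (0.603 to 1.67). The interval of Mir133b spans both a decrease and an increase of over 1.5-fold, so a difference of the size of that in Mir206 was not detectable at this depth.

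Thus 3 of the 5 loci were over 2-fold higher in replicate 2, all of them on the cardiac list. Of the 363 loci with a mean count of 10 or more, 14 were over 2-fold higher in replicate 2 (3.86%), and 20 (5.51%) were past 2-fold in either direction. The median log2 ratio was 1.51 over the 5 muscle loci and 0.02 over the 363. Among the 363, the ratios of Mir208a, Mir208b and Mir499 held places 4, 5 and 6 from the top, that of Mir206 place 26 and that of Mir133b place 187. The 5 loci were chosen with earlier results of these data known, so these places describe them and test nothing. With a mean count of 100 or more, which leaves Mir208a, Mir208b and Mir206 of the members, 3 of 257 loci (1.17%) were over 2-fold higher, 2 of them being Mir208a and Mir208b.

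**Figure D3:**
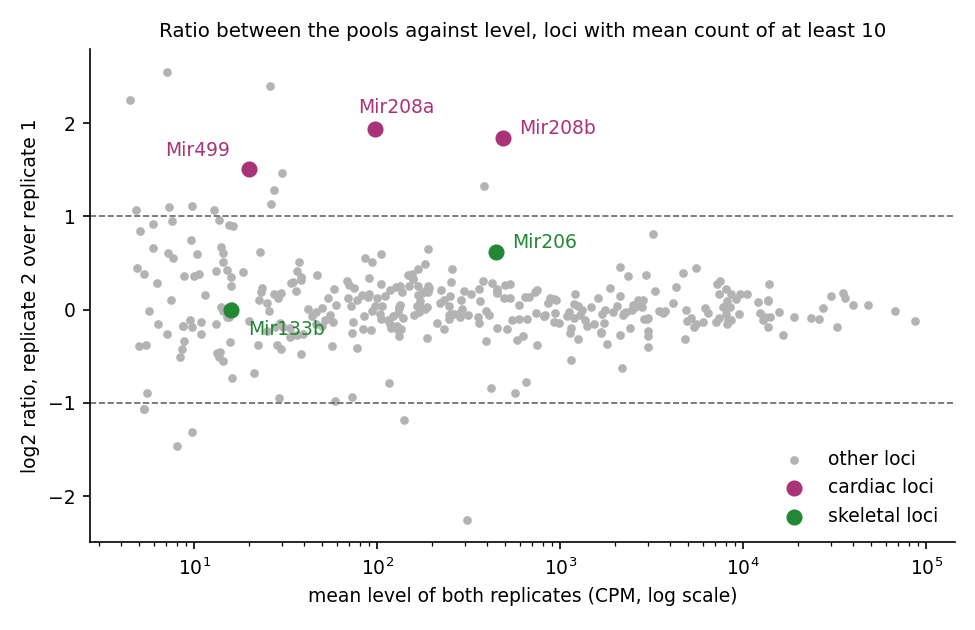
Log2 ratio of replicate 2 over replicate 1 against mean level in CPM (log scale) for the 363 loci with a mean count of 10 or more, with dashed lines at 2-fold. Mir208a (1.93), Mir208b (1.84) and Mir499 (1.51) lie above the upper line, Mir206 (0.62) below it and Mir133b at 0.

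Ratios between loci inside a library do not depend on the library total. They are ratios of counts, and how evenly different sequences were recovered in the libraries was not measured. Mir208b exceeded Mir208a by 5.28-fold (4.14 to 6.82) in replicate 1 and by 4.94-fold (4.41 to 5.55) in replicate 2, a log2 difference of 2.35 ± 0.07. The change of this ratio from replicate 1 to replicate 2 was 0.935-fold, with an exact 95% interval of 0.706 to 1.23. Mir208b exceeded Mir499 by 20.6-fold (13.2 to 34.1) in replicate 1 and by 25.9-fold (20.3 to 33.5) in replicate 2, a change of 1.26-fold (0.714 to 2.12). Both differences were larger than the replicate difference of either locus. So the proportions among the cardiac loci changed by less than counting error, with intervals that still allow about a 2-fold change for Mir499, while their levels moved by 2.85 to 3.82-fold.

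Between the skeletal neighbours, Mir206 exceeded Mir133b by 21.9-fold (15.3 to 32.5) in replicate 1 and by 33.7-fold (24.3 to 48.1) in replicate 2. The change of that ratio was 1.54-fold (0.913 to 2.57), within counting error. The size of this difference is uncertain because miR-133b-3p reads may be missing.

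Across the classes the balance turned. Mir208b was at 0.607 of Mir206 (0.536 to 0.687) in replicate 1 and at 1.41 times Mir206 (1.31 to 1.52) in replicate 2, a change of 2.33-fold (2.01 to 2.69). Summed, the cardiac loci had 510 counts against 710 skeletal counts in replicate 1, and 2183 against 1283 in replicate 2. Their ratio was 0.718 (0.640 to 0.806) and 1.70 (1.59 to 1.82), a change of 2.37-fold (2.07 to 2.71). The cardiac share of the 5 loci was 41.8% in replicate 1 and 63.0% in replicate 2. Mir208b, hosted by the beta or slow myosin gene, gave 412 of the 510 and 1759 of the 2183 cardiac counts. The share is therefore one of listed loci, and the amounts of heart and skeletal muscle were not measured. The interval of the 2.37-fold change covers counting error alone, and the spread among further pools is not known.

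**Figure D4:**
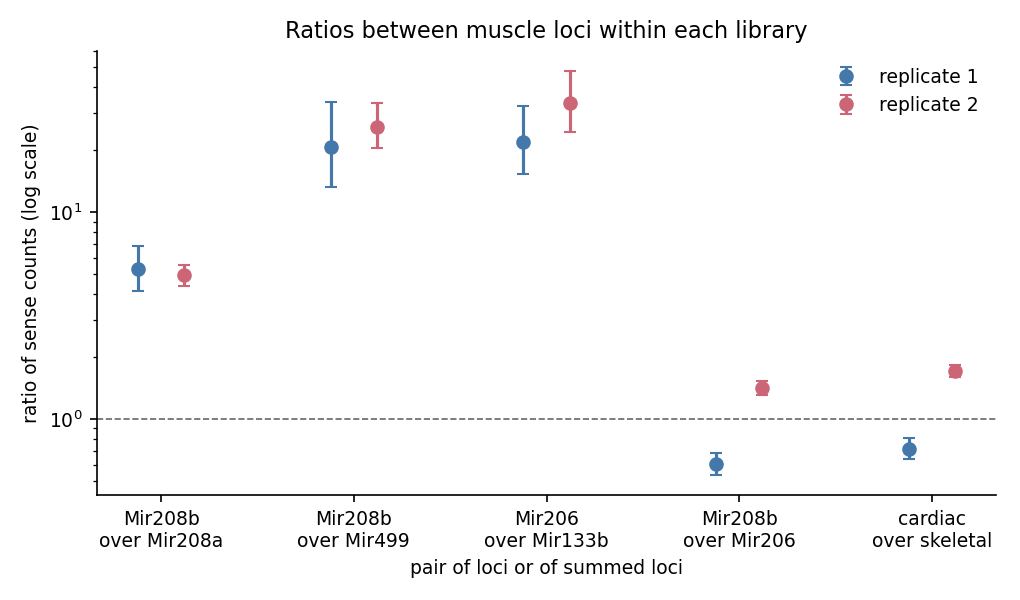
Ratio of sense counts (log scale) between pairs of loci, and between the summed cardiac and skeletal loci, in replicate 1 (blue) and replicate 2 (red) with exact 95% counting intervals; the dashed line marks equality. The 3 ratios within a class have overlapping intervals, whereas Mir208b over Mir206 and cardiac over skeletal lie below 1 in replicate 1 (0.607 and 0.718) and above it in replicate 2 (1.41 and 1.70).

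The hosts of Mir208a and Mir208b are separate genes with promoters of their own. The stretches of 250 bases before the starts of these hosts were searched for motifs of muscle regulators. Whether the motifs bear on the levels or on the ratios between the pools was not tested. The MCAT element of TEAD factors was searched as CATTCC, the site of the cardiac GATA factors as AGATAA, the E-box of myogenic factors as CAGCTG and the TATA box as TATAAA. The MEF2 site and the CArG box of serum response factor were searched as well, and all of them on both strands. A match to the MCAT element, read as GGAATG on the strand shown, was the only one found in the Myh6 stretch and the only one in the upstream of the 2 listed Myh7 stretches. The other Myh7 stretch, which starts from a start site further along the gene, held no match to any of the motifs. These are printed 5′ to 3′ with that match in capitals, from RefSeq on GRCm38.p6.
Myh6, chr14:54966608-54966857, minus strand: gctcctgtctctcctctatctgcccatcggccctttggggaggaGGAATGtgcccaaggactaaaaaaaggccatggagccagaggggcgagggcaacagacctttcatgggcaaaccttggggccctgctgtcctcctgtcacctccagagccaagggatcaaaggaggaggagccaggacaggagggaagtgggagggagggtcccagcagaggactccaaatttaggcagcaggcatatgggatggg
Myh7, chr14:54994627-54994876, minus strand: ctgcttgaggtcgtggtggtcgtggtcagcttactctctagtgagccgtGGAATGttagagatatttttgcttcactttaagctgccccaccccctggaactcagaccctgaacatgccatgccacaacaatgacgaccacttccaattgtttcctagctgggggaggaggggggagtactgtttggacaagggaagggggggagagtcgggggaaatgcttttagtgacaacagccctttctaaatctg
The matches begin 206 bases before the Myh6 start and 201 bases before the Myh7 start, both as given by RefSeq. The MCAT element occurs in 12.6% of the 32851 promoters searched in the same way, so it is a common word. In the stretch of Myh7b, the host of Mir499, the single match was AGATAA at 133 bases before the RefSeq start, found in 9.99% of promoters. That stretch ends at chr2:155611242, past the GENCODE start of the gene at 155611212. A match describes the letters of these windows, and binding was not measured.

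Other microRNA loci of striated muscle gave few counts. Of 9 names on that list 6 were matched, and 3 of these (Mir133a-1, Mir133a-2 and Mir133c) had 0 counts in both libraries. The limit of 3 counts set for a count of 0 corresponds to 1.55 CPM (replicate 1) and 1.29 CPM (replicate 2). Mir1a-1, a source of the main muscle microRNA miR-1, had 0 counts in replicate 1 and 1 in replicate 2, and Mir1b had 8 and 9. Their hairpins share a run of 28 bases, and those of Mir133a-1 and Mir133a-2 share 31, so low counts at these loci do not show low expression. Mir486, a locus of muscle and red blood cells, had 31 counts (16.0 CPM) in replicate 1 and 49 (21.1 CPM) in replicate 2, a log2 ratio of 0.40 (-0.27 to 1.10). It was the single locus of this list with a mean count of 10 or more, and its interval spans no difference.

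Marker loci of other cell types were read in the same libraries. In the erythroid list (3 of 5 names matched, none at 0) the summed level was 280 CPM in replicate 1 and 614 CPM in replicate 2. This came from Mir451a, a microRNA of red blood cell precursors, whose level was 218 CPM in the first pool and 547 CPM in the second (2.51-fold, 2.25 to 2.81). Mir144, which lies beside it, had 46.4 and 45.7 CPM. In the liver list (4 of 5 matched, none at 0 in both) the sum was 203 CPM in replicate 1 and 220 CPM in replicate 2. Its defining member Mir122, the main hepatocyte microRNA, had 16.0 and 44.0 CPM (2.75-fold, 1.83 to 4.26), while Mir192 had 96.3 and 98.7 CPM and Mir194-2 had 89.6 and 77.6 CPM. Mir194-1 had 2 counts and 0 counts. Mir451a and Mir122 thus moved with the cardiac loci, while Mir144, Mir486, Mir192 and Mir194-2 of the same lists stayed within 2-fold. The part of blood or of other organs' tissue in the cardiac result was not tested.

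The remaining lists moved little. The smooth muscle loci Mir143 and Mir145a had log2 ratios of 0.11 and 0.44, Mir145b had 0 counts, and the list's sum was 13385 and 14479 CPM. The endothelial Mir126a had 39037 and 40425 CPM. The leukocyte list had sense counts that summed to 564 and 672 CPM, the most at Mir223 with 382 and 466 CPM. That sum leaves out Mir142, which was not matched, and Mir142b, which had 0 sense counts but 1812 and 2099 opposite-strand counts. The mesenchymal list, led by Mir214, had a summed ratio of 1.06. Those of the epithelial list, led by Mir429, and the neural list, led by Mir137, were 0.893 and 0.819. Of all 363 loci with a mean count of 10 or more, 186 were higher in replicate 2. All 7 epithelial loci were lower in replicate 2, but they are not 7 separate observations. Mir200a, Mir200b and Mir429 lie close together on chr4, and Mir200c and Mir141 on chr6. Of the 4 neural loci with a mean count of 10 or more, 3 were lower and 1 was higher. No locus of these 6 lists with a mean count of 10 or more passed 2-fold in either direction.

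**Figure D5:**
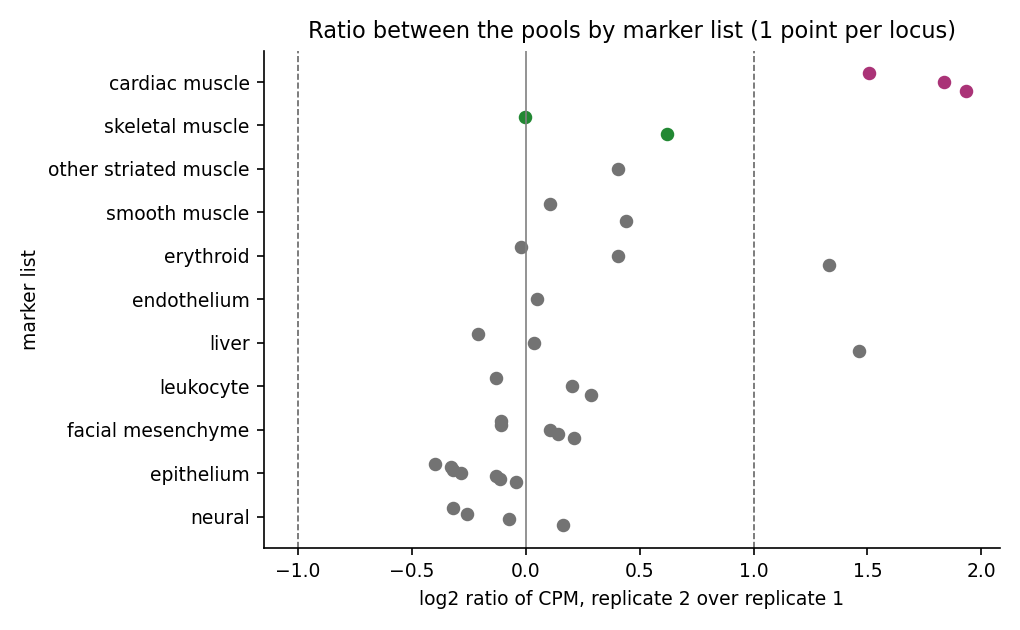
Log2 ratio of replicate 2 over replicate 1 for each marker locus with a mean count of 10 or more, by list (Mir486 is on both the other striated muscle and the erythroid list), with dashed lines at 2-fold. The 3 cardiac loci lie between 1.51 and 1.93, and outside them Mir451a (1.33) and Mir122 (1.46) are past the line.

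To place each muscle locus among the others, the 3 loci with the nearest pair of levels were listed, by Euclidean distance in log2(CPM + 1) over the 2 libraries. Mir208b was nearest to Mir451a, at a distance of 0.47, followed by Mir224 (1.09) and Mir223 (1.10). Mir208a had no close neighbour: Mir6944, Mir103-2 and Mir874 were at 0.97, 1.04 and 1.08, and their log2 ratios of 0.51 to 0.59 were well below its own 1.93. Mir499 was nearest to Mir3057 (0.47), Mir129-2 (0.52) and Mir2137 (0.63). Mir206 lay close to Mir223 (0.24), Mir339 (0.29) and Mir1306 (0.30). Mir133b lay closest of all to other loci, with Mir3064, Mir3061 and Mir1188 at 0.04, 0.08 and 0.12. With 2 libraries these distances describe levels only.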

How the data were processed

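Total RNA of each pool gave 1 small-RNA library (under 30 bases, as labelled). Each deposited table holds raw counts for microRNA genes on mm10 with GENCODE M4, per the file headers that accompany each table; the aligner and counter are not given in the sources used here. Reads without a gene (unmapped, several positions, no locus) were left out of totals: 40.8% of 4755968 reads were assigned on the sense strand in replicate 1 and 34.2% of 6781929 in replicate 2.

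The sense column was scaled to CPM. Symbols came from GENCODE M21 (1894 of 1973 identifiers matched, ignoring versions). Level intervals were exact Poisson, ratio intervals exact Clopper-Pearson, and changes of ratios used the exact conditional odds ratio. For 2 loci, a difference counted as larger than that of the replicates if it exceeded, in each library, the log2 ratio between replicates of either locus. Limits were a mean count of 10 and 2-fold. A count of 0 allows up to 3 counts. Steps were tested on simulated counts. Alternatives covered library factors, strand, totals, minimum counts and leaving out a replicate. Reads carry no molecular identifiers in the labels.

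Members and lists were chosen with earlier results of these data known. The loci named are the 5 members, the other striated muscle, erythroid, smooth muscle, endothelial and liver lists, the most abundant locus of other lists, and 3 nearest loci per member. The nearest loci were sought outside the 5 members. Motifs, seeds and shared runs were added after values were seen. Tools were edgeR 4.0.16 (TMM factors) and DESeq2 1.42.0 (size factors) in R 4.3.3, and scipy 1.17.1, numpy 2.4.6, pandas 2.3.3 and matplotlib 3.10.9 in Python 3.11.15.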

Additional observations from a re-analysis of the deposited data

Results flagged for a closer look

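Counts on the opposite strand were not used in the comparisons and were 0 in both libraries at all 5 muscle loci. Among the other striated muscle loci, Mir486 had 5 opposite-strand counts in replicate 1, above the limit of 3 counts, and 3 in replicate 2.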

How the results depend on the processing

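Of 84 alternative values 74 stayed within the replicate SD, the counting interval or 1.5 times the count, and 10 moved. Some of the 74 could not have moved and say nothing on stability. With a replicate left out, the value of the other always lies within the SD of the pair. The strand column cannot change ratios between members within a library, since their opposite-strand counts were 0. The sign changed for the mean cardiac to skeletal log2 ratio (0.14), which was -0.02 as a mean of log2 values over the loci, and for both ratios whose libraries point in opposite directions, given below without each replicate. No other direction changed, apart from that of Mir133b around 0. Without the 10 most abundant loci in the total, the levels of all 5 loci rose, since the total is smaller. They were 34.7 CPM for Mir499, 777 CPM for Mir206, 28.0 CPM for Mir133b, 170 CPM for Mir208a and 850 CPM for Mir208b. Those of Mir208a and Mir208b count among the 74 only because their replicate SD is large. With counts irrespective of strand Mir133b had 15.5 CPM. Per total of all reads, unassigned ones included, the log2 ratios of Mir208b and Mir206 were 1.58 and 0.36; over all scalings and with 0.5 counts added, they ran from 1.68 to 1.94 for Mir208a, 1.58 to 1.84 for Mir208b, 1.25 to 1.51 for Mir499, 0.36 to 0.62 for Mir206 and -0.26 to 0.00 for Mir133b. As a mean of log2 values over the loci, the cardiac to skeletal change was 1.44 against 1.24 from sums. Loci past 2-fold numbered 20 at a mean count of at least 10, 13 at 20, 5 at 100, and 90 with at least 1 count in both libraries. Leaving out a replicate leaves the value of the other library: the log2 ratio of cardiac to skeletal loci was 0.77 without replicate 1 and -0.48 without replicate 2, and that of Mir208b to Mir206 was 0.50 and -0.72, so each direction rests on the library used. No ratio between replicates can be formed without either of them. No paired analysis was possible because the labels give 1 group. Counts of 20 to 68 for Mir499 and Mir133b limit their precision.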

Other observations

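The loci whose ratios exceeded those of the cardiac loci were named after their values were seen. They were Gm25911 with 4 and 28 counts, Mir2137 with 16 and 101 counts, and Mir3093 with 3 and 17 counts in replicates 1 and 2. None of them reached 356 counts, the higher count of Mir208a, in either library.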
